A study of Mus musculus with 8 samples.

Results

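The genes described here encode the enzymes that make cholesterol and fatty acids, together with the proteins that sense sterols and control those enzymes. The list of 35 genes was made from pathway knowledge, but with earlier results of these data known. Of these, 34 could be measured, each by its brightest probe set: among the probe sets assigned to that gene alone, the one that averaged highest in log2 intensity over the arrays. They stand among 18193 genes measured in the same way, and 33 of them were above background on at least 2 arrays (all but Scd1). Acat2, the cytosolic thiolase that makes acetoacetyl-CoA, was not analysed here. RNA came from haematopoietic stem cells of C57/B6 fetal liver, sorted as Lin-Sca+Kit+ (no lineage markers, with Sca-1 and Kit on the surface), and was hybridised to 8 Affymetrix arrays, with 1 mouse per array. The genotypes were wild type (2 arrays), ADAR1 +/- (3 arrays, called heterozygous) and ADAR1 -/- (3 arrays, called null). ADAR1 is an editing enzyme that deaminates adenosine to inosine where RNA is double-stranded. The wild-type and heterozygous arrays together are called the 5 control arrays. For the allele, the way it was removed and the embryonic day, the sources used here give nothing.

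Cells build cholesterol from acetyl-CoA through mevalonate, farnesyl diphosphate, squalene and lanosterol, and they build fatty acids from the same acetyl-CoA by carboxylation, chain synthesis, elongation and desaturation. When membranes hold little sterol, the escort protein Scap carries SREBP transcription factors out of the endoplasmic reticulum, and the factors then turn on most of these genes; Insig proteins hold the complex back when sterol is plentiful. In fetal liver the hepatocytes that surround the stem cells are themselves rich in these transcripts, and dividing blood cells use the pathway to make membrane.

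SREBPs are known to bind sterol regulatory elements close to the start of transcription, beside sites for NF-Y and Sp1. The 250 bases before the start site were therefore searched on both strands for the sterol regulatory element TCACNCCAC, the E-box CACGTG, the NF-Y box CCAAT and the GC box GGGCGG, in RefSeq promoters of build GRCm38.p6. A promoter was matched for 27 of the 34 measured genes. Fads1, Fdft1, Fdps, Scd1, Scd2, Sqle and Stard4 had no entry. The 4 promoters below are shown because Hmgcs1 was the only matched gene with the sterol regulatory element, Insig1 is a sterol sensor and holds an E-box, and Acly and Acsl3 were the 2 genes whose null arrays all lay below every control array. Capitals mark matches to any of the 4 motifs on either strand. The windows are chr13:119690101-119690350 (plus strand) for Hmgcs1, chr5:28071162-28071411 (plus strand) for Insig1, chr11:100528001-100528250 (minus strand) for Acly and chr1:78657575-78657824 (plus strand) for Acsl3, and each is written 5′ to 3′ on the gene's own strand.
Hmgcs1: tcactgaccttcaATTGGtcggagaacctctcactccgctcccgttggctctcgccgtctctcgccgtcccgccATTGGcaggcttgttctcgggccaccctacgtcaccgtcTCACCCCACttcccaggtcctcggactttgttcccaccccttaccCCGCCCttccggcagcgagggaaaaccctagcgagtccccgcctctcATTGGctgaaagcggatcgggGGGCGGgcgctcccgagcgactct
Insig1: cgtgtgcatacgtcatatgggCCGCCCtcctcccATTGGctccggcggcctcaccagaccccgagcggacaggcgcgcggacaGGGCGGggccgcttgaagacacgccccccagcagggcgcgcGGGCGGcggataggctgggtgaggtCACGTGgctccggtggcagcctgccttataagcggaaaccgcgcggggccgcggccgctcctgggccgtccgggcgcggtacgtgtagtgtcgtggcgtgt
Acly: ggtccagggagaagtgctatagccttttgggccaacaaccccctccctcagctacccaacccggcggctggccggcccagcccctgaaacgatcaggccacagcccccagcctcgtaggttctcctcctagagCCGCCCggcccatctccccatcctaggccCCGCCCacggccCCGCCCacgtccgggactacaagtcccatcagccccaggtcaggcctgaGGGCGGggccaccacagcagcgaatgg
Acsl3: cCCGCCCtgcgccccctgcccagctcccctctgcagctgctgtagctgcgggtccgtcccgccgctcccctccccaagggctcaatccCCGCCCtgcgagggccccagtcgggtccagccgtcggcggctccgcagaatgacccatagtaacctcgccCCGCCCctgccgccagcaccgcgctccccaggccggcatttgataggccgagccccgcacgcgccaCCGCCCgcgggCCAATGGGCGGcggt

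In the Hmgcs1 window the sterol regulatory element begins 137 bases before the start, between NF-Y boxes, and in the Acsl3 window a CCAAT box runs directly into a GC box close to the start. The Acly window holds GC boxes and no other motif. A gene was counted if any of its promoters held the motif, and some genes had several, while shares of all promoters count each promoter once. Over the matched genes, the NF-Y box was found in 22 of 27 (81.5%). It was found in 39.4% of the 14452 measured genes with a promoter and 33.8% of all 32851 promoters in the table. The GC box was found in 23 of 27 (85.2%), against 53.4% of measured genes and 32.7% of promoters. The E-box, which is the same on both strands, was found in 5 (18.5%, in Dhcr7, Hsd17b7, Insig1, Sc5d and Scap), against 8.73% of measured genes and 6.02% of promoters. The sterol regulatory element as spelled here was found in 1 of 27 (3.70%), against 1.27% of measured genes and 1.05% of promoters. A match describes letters in the window and is not a measured binding site.

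The arrays differed in quality and in cell markers. Probe sets above background, the highest of the 27 control probe sets for Bacillus transcripts on an array, made up 45.6% to 61.2% of each control array. They made up 40.0% of null array 1, 46.4% of null array 2 and 44.7% of null array 3. The deposited intensities also did not share one distribution over the arrays. The upper quartile of log2 intensity was 3.984 on null array 1 and 4.007 on null array 3, against 4.199 to 4.513 on the control arrays. Null array 2 lay inside the control range. Of the sort markers, Kit read 9.33 to 23.5 linear units over the 8 arrays and Ly6a, which encodes Sca-1, was not analysed here. On its brightest probe set, Adar itself read 7.66 to 17.6 linear units in controls and 59.7, 144 and 176 in null cells. Since the position of its probes against the removed sequence is unknown here, this level does not check the genotype labels. Xist, which is transcribed in female cells, read 34.3 on null array 1 and 594 and 514 on the other null arrays. It was also low on heterozygous arrays 1 and 3 (21.6 and 26.8) and read 742 and 660 on the wild-type arrays. Eif2s3y, a Y chromosome gene, read 99.9 and 127 on heterozygous arrays 1 and 3 and 151 on null array 1. It read 5.36 to 10.1 on the other arrays. By these genes the arrays with low Xist read as male and the rest as female, both wild-type arrays among them. The part of sex in the results was not tested.

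Null cells were compared with all control cells to ask how the pathway's transcripts differ where ADAR1 is lost. Most of the pathway read lower in null cells, but no gene of it passed the threshold (an adjusted p of 0.05, limma). Of the 34 genes, 30 were lower and 4 higher, with a median difference of -0.70 log2 units. The lowest relative to controls were the citrate lyase Acly, the sterol reductase Dhcr7, the squalene synthase Fdft1 and the lanosterol synthase Lss, at -1.95 to -2.38 log2 units. The 4 that read higher were Sc5d, Msmo1, Scd1 and Hsd17b7.

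The test was limma on log2 intensity, with p adjusted over all 45037 probe sets. It called 0 of the 34 genes, beside 0.582% of all probe sets tested and 0.934% of all genes by their brightest probe set. At an unadjusted p under 0.05, 9 genes were lower and 1 was higher, against 7.98% and 5.51% of all genes. Among all genes 45.9% were lower, with a median difference of 0.03. The null arrays lay below every control array for 2 of the 34 genes (Acly and Acsl3) and above every control array for 1 (Scd1), beside 4.95% and 4.19% of all genes. With 2 genes that were at background in a whole group set to their bounds, the median remained -0.70. Under other scalings the count of lower genes was 26 of 34 with either quantile or cyclic loess normalization, and the median was -0.49 and -0.42. The size of the median difference thus depended on the scaling of the arrays. In bulk RNA, fewer cells of a type and less RNA per cell cannot be told apart.

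**Figure D1:**
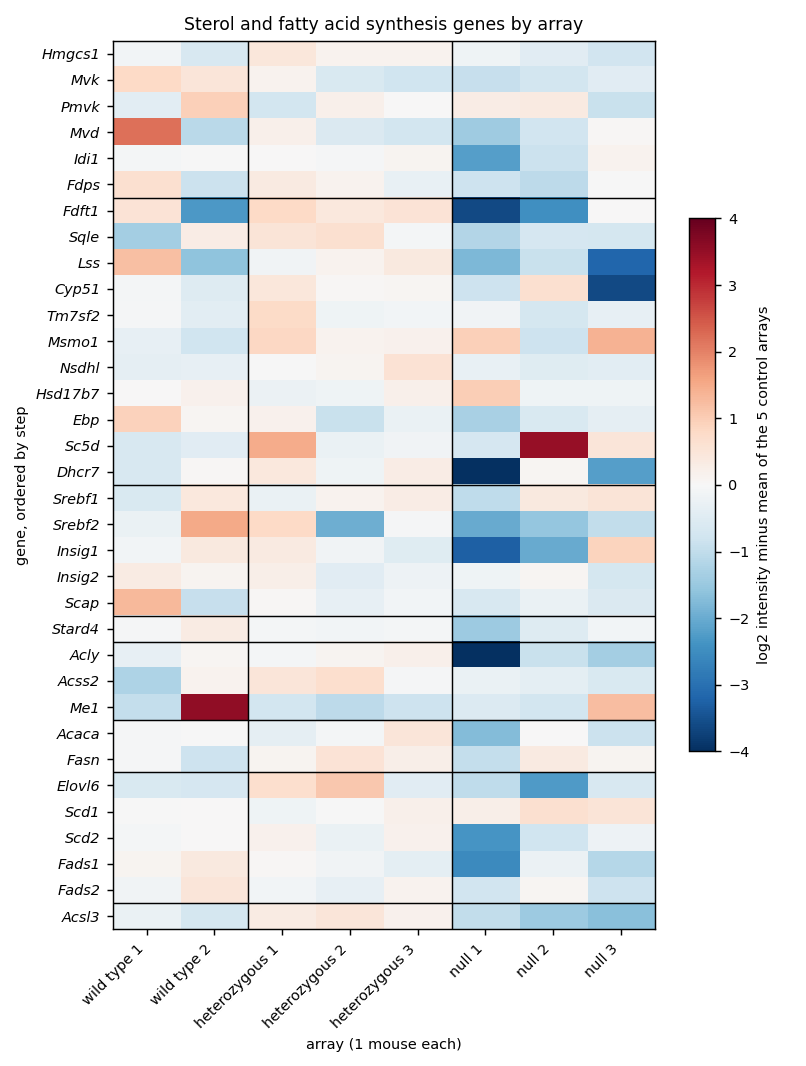
Log2 intensity of each of the 34 genes (rows, ordered by pathway step, black lines between steps) on each of the 8 arrays (columns, 1 mouse each), minus the gene's mean over the 5 control arrays; the colour scale stops at 4 units in either direction. Null array 1 holds the most dark blue cells, among them Acly, Dhcr7, Fdft1 and Insig1, and the 3 null columns are dark for different genes.

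The 6 measured genes of the mevalonate pathway were all lower in null cells than in controls, with a median of -0.66 log2 units, and none passed the threshold. Hmgcs1, the synthase that makes HMG-CoA and whose promoter holds the sterol regulatory element, read 1350.2 and 939 linear units in wild-type cells. It read 2011, 1617 and 1619.8 in heterozygous cells and 1293, 1077 and 861 in null cells. The null arrays overlapped the wild-type arrays and lay below all 3 heterozygous arrays. The difference from all controls was -0.46 ± 0.26 log2 units (SE, n = 3 null and 5 control arrays, adjusted p = 0.531). Idi1, which isomerises isopentenyl diphosphate, was even in control cells at 715 to 814 and read 163, 413 and 823 in null cells. It was below every control array on null arrays 1 and 2 and just above the highest of them on null array 3, with a difference of -0.98 ± 0.44 (adjusted p = 0.459). The second Idi1 probe set was not even in controls. There wild-type array 2 (38.8) lay below the null arrays (134 to 150) and the other controls (248 to 334) above them, with a difference of -0.43 ± 0.69. The kinase Mvk (-0.70), the decarboxylase Mvd (-0.72) and the farnesyl diphosphate synthase Fdps (-0.63) differed by similar amounts. The second kinase of the pathway, Pmvk, differed by -0.08 ± 0.44.

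Of the 11 genes that make squalene and carry it to cholesterol, 8 were lower and 3 higher in null cells than in controls, and the median was -0.76 log2 units. Dhcr7, the reductase that completes cholesterol in its branch of the pathway, read 130.4 and 210.4 in wild-type, 271, 179.7 and 249 in heterozygous and 11.4, 211 and 43.7 in null cells. Null arrays 1 and 3 were below every control array, while null array 2 stood among the controls. The difference was -2.09 ± 0.81 (adjusted p = 0.397), and it depended on the null array left out. Without null array 1 it was -1.07 (adjusted p = 0.602), and without null array 2 it was -3.17 and passed the threshold (limma, adjusted p = 0.0399). Fdft1, which joins farnesyl units into squalene, read 159 and 22.1 in wild-type, 188, 146 and 161 in heterozygous and 8.96, 19.9 and 110.2 in null cells. Wild-type array 2 was as low as null array 2, so the groups overlapped, and the difference was -2.02 ± 0.97 (adjusted p = 0.476). Lss, which closes the sterol rings, read 357 and 51.0 in wild-type, 142, 171 and 204 in heterozygous and 44.6, 84.3 and 17.3 in null cells. All null arrays were below all heterozygous arrays, and wild-type array 2 again fell within the null range (-1.95 ± 0.69, adjusted p = 0.351).

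Sqle, the epoxidase that acts on squalene, read 14.2 and 44.4 in wild-type, 51.7, 56.7 and 34.8 in heterozygous and 16.2, 23.1 and 22.5 in null cells. The null arrays were below the 3 heterozygous arrays and straddled by the wild-type pair (-0.84 ± 0.44, adjusted p = 0.511). The lanosterol demethylase Cyp51 read 66.5 to 130.2 in controls and 53.4, 148 and 7.82 in null cells. Null array 3 was far below the controls, null array 1 slightly below and null array 2 above them (-1.27 ± 0.82, adjusted p = 0.581). Ebp (a sterol isomerase), Nsdhl (a sterol dehydrogenase) and Tm7sf2 (a sterol reductase) differed from controls by -0.76, -0.40 and -0.39. Tm7sf2 was at background on every null array, so its true ratio has only a bound, at least 1.06-fold lower.

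The 3 steps that read higher each did so on part of the null arrays. Sc5d, a desaturase near the end of the pathway, read 10.1 and 11.3 in wild-type, 43.1, 13 and 14.2 in heterozygous and 9.73, 175 and 21.8 in null cells. Null array 2 was far above all other arrays and null array 1 below all of them, and the difference was 1.10 ± 0.91 (adjusted p = 0.661), or -0.094 without null array 2. Msmo1, the oxidase that removes methyl groups from sterols, read 9.40 and 6.68 in wild-type, 20.6, 12.8 and 13.2 in heterozygous and 22.8, 6.63 and 30.8 in null cells. Null arrays 1 and 3 were high and null array 2 was the lowest of the 8 (0.52 ± 0.55, adjusted p = 0.732). Hsd17b7, a ketosteroid reductase, read 39.2 and 43.8 in wild-type, 33.3, 34.5 and 44.4 in heterozygous and 76.7, 34.5 and 34.2 in null cells. Its difference of 0.21 ± 0.28 came from null array 1, with the other null arrays inside the control range (adjusted p = 0.788), and was -0.18 without it.

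The 5 genes that sense sterols or transcribe the pathway were lower in null cells as well, with a median of -0.50 log2 units and none past the threshold. Srebf2, the transcription factor that favours sterol genes, read 34.3 and 119 in wild-type, 71.7, 10.7 and 40.1 in heterozygous and 10.3, 14.4 and 21.1 in null cells. The null arrays were below both wild-type arrays, and heterozygous array 2 was as low as they were (-1.51 ± 0.72, adjusted p = 0.474). Srebf1, which favours fatty acid genes, read 7.12 and 14.5 in wild-type, 9.02, 12 and 13.4 in heterozygous and 5.40, 14.3 and 15.5 in null cells. These values overlapped throughout and sat close to background (-0.03 ± 0.40, adjusted p = 0.982), and the sign turned under other scalings (0.026 with quantile and 0.065 with cyclic loess normalization) and without null array 1 (0.46). Insig1, the retention protein that is itself a target of SREBPs, read 51.8 and 73.9 in wild-type, 71.5, 50.9 and 40.2 in heterozygous and 5.83, 13.8 and 104 in null cells. Null arrays 1 and 2 were below every control array and null array 3 above every one. The difference was -1.47 ± 0.82 (adjusted p = 0.530), and it too depended on the null array left out. Without null array 1 it was -0.57 (adjusted p = 0.831), and without null array 3 it was -2.65 and passed the threshold (limma, adjusted p = 0.0354). Insig2 (-0.27) and Scap (-0.50) differed less, and the sterol carrier Stard4 differed by -0.69 ± 0.29 (adjusted p = 0.424).

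Of the 11 fatty acid genes, 10 were lower in null cells than in controls, with a median of -0.86 log2 units. Acly, which cleaves citrate to give cytosolic acetyl-CoA to both pathways, read 331 and 446 in wild-type, 399.8, 449 and 479.8 in heterozygous and 13.9, 227 and 162 in null cells. On this probe set the control arrays were close together and every null array was below all of them, with null array 1 far lower than the other null arrays. The difference was -2.38 ± 0.83 (adjusted p = 0.341), and without null array 1 it was -1.12 (adjusted p = 0.0853). On the next brightest Acly probe set the groups overlapped, since heterozygous array 2 (55.9) lay below null arrays 2 and 3 (97.4 and 100.1). On the probe set after that in brightness, every null array (84.6, 88.3 and 32.3) was below every control array (105 to 171). There null array 3 was the lowest. Acaca, the carboxylase that commits acetyl-CoA to fatty acids, read 153 and 155 in wild-type, 121, 149 and 218 in heterozygous and 47.1, 157 and 86.7 in null cells. Null array 2 lay among the controls (-0.86 ± 0.37, adjusted p = 0.431). Fasn, the fatty acid synthase, read 33.4 and 19.6 in wild-type, 36.9, 50 and 40.7 in heterozygous and 17.8, 44.5 and 37.6 in null cells. The groups overlapped and the difference was -0.15 ± 0.38 (adjusted p = 0.889, 95% interval -1.04 to 0.73). Its sign turned with quantile (0.11) and cyclic loess normalization (0.19) and without null array 1 (0.24). Acss2, which makes acetyl-CoA from acetate, differed by -0.43, and Me1, a source of NADPH, by -0.02. Me1 was above background on 3 of the 8 arrays, among them wild-type array 2 at 133.

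Among the 5 genes of elongation and desaturation, 4 were lower in null cells, and the median was -1.11 log2 units. Scd2, a desaturase that makes monounsaturated fatty acids, read 472 and 498 in wild-type, 560.1, 415 and 561 in heterozygous and 96.8, 289 and 435 in null cells. Null arrays 1 and 2 were below every control array and null array 3 was inside their range (-1.11 ± 0.43, adjusted p = 0.399). The polyunsaturated fatty acid desaturases Fads1 and Fads2 differed by -1.30 ± 0.47 and -0.50 ± 0.26, and the elongase Elovl6, which lengthens palmitate, by -1.30 ± 0.53. Scd1, the desaturase best known from liver and fat, read 5.03 and 5.21 in wild-type, 4.57, 5.10 and 5.87 in heterozygous and 6.07, 8.03 and 7.39 in null cells. Every null array was above every control array, yet only null array 2 was above background. All 5 control arrays and the other null arrays were at background, so the difference of 0.47 ± 0.14 (adjusted p = 0.253) gives no measured fold.

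Acsl3, which couples long-chain fatty acids to CoA and sits on lipid droplets, was the only one of the 34 genes to pass the threshold in any of the 4 comparisons over all arrays. It read 19.4 and 14.4 in wild-type, 29.2, 32.6 and 26.2 in heterozygous and 11.9, 8.53 and 7.25 in null cells. On this probe set the 3 groups did not overlap, with null lowest and heterozygous highest. Acsl3 fell by 1.69 ± 0.23 log2 units from heterozygous to null cells (n = 3 and 3, adjusted p = 0.0383). Null array 3 was below the background level, so the low end of this difference is not a measured level. Against all controls it differed by -1.37 ± 0.30 (adjusted p = 0.127) and against wild type by -0.89 ± 0.25 (adjusted p = 0.397). The call against heterozygous cells did not hold without any one heterozygous array (adjusted p = 0.177, 0.168 and 0.135 without arrays 1, 2 and 3), without null array 2 (0.0596) or null array 3 (0.0694), or without either wild-type array (0.0580), and it held without null array 1 (0.0322). Over all 18 alternatives the difference ran from -1.89 to -0.57, the smallest with a pseudocount of 32, and the adjusted p from 0.0297 to 0.177. The other Acsl3 probe sets differed between null and control cells by -0.99 ± 0.38 and -0.33 ± 0.21. Against heterozygous cells they differed by -1.27 ± 0.38 (limma, adjusted p = 0.319) and -0.30 ± 0.25 (adjusted p = 0.629). The first of them was above background on all 8 arrays. On it wild-type array 1 (9.52) fell within the null range (9.40 to 11.5), so the groups overlapped.

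**Figure D2:**
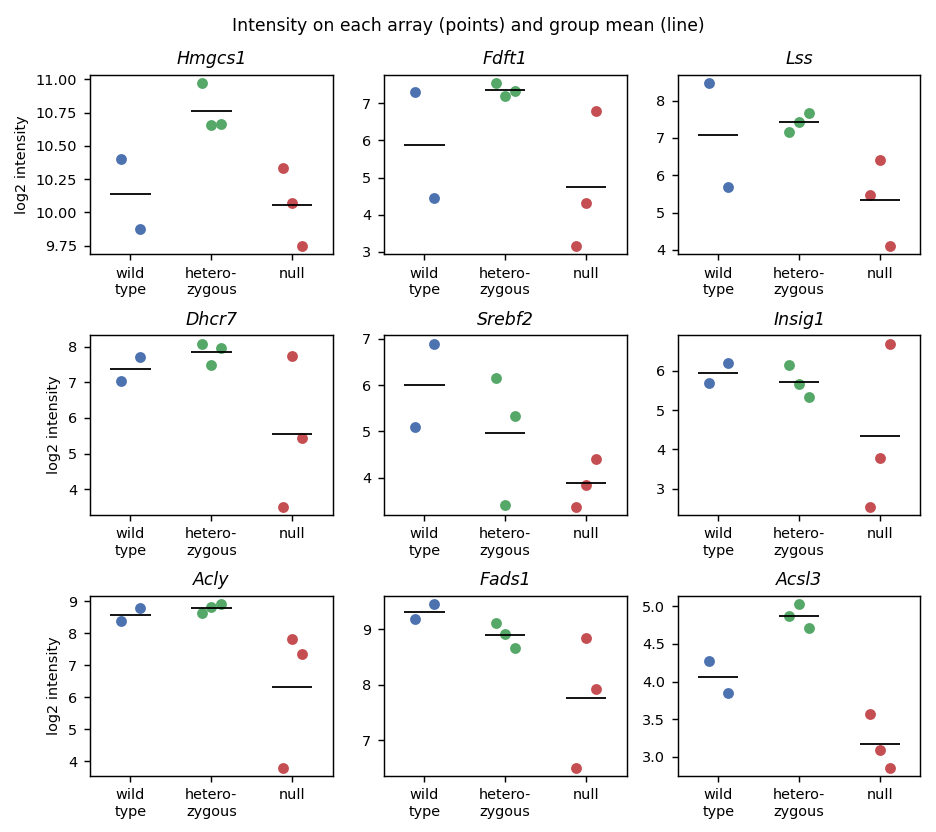
Log2 intensity on each array (points, coloured by group) and group mean (line) for 9 of the genes, each with its own vertical scale. Acsl3 and Acly have every null point below every control point, while Dhcr7 and Insig1 have 1 null point each at or above the level of most controls.

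The comparisons with wild type and with heterozygous cells share the null arrays, so their values are given side by side. Against wild type, 27 of the 34 genes were lower in null cells (50% of all genes were), with a median of -0.76 log2 units against 0.00 over all genes. Against heterozygous cells, 28 were lower (43.7% of all genes were), with a median of -0.66 against 0.06 over all genes. limma called 0 of the 34 against wild type, beside 0.326% of all probe sets tested and 0.517% of all genes. The unadjusted p was under 0.05 for 5 lower genes and 1 higher gene, beside 5.91% and 3.37% of all genes. Against heterozygous cells it called 1 of 34 (Acsl3, lower), beside 0.313% of all genes as lower, 0.770% of all genes in either direction and 0.502% of all probe sets. There the unadjusted p was under 0.05 for 8 lower genes and 1 higher gene, beside 7.88% and 5.12% of all genes. Below both wild-type arrays on every null array were Mvk, Ebp, Srebf2, Insig2, Stard4, Acly, Scd2, Fads1 and Acsl3, 9 of 34 beside 10.8% of all genes. Below all heterozygous arrays were Hmgcs1, Fdft1, Sqle, Lss, Nsdhl, Acly, Acss2, Elovl6 and Acsl3, 9 of 34 beside 10.3% of all genes. Scd1 was the only gene above in each case, beside 9.49% and 12.2% of all genes. Leaving out null array 1 gave medians of -0.49 (wild type), -0.46 (heterozygous) and -0.49 (all controls).

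Mvk had the lowest adjusted p of the 34 genes against wild type. The kinase read 39.2 and 31.8 in wild-type, 24.9, 14.7 and 13.1 in heterozygous and 11.9, 13.7 and 16.7 in null cells. Null and heterozygous arrays overlapped and both groups lay below the wild-type arrays. The difference of null from wild type was -1.34 ± 0.31 (adjusted p = 0.257) and from heterozygous -0.28 ± 0.27 (adjusted p = 0.674). The other Mvk probe set, above background on 7 arrays, did not show this pattern. On it the 3 groups overlapped, and null differed from wild type by 0.08 ± 0.45 and from heterozygous by 0.15 ± 0.40.

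Heterozygous cells were compared with wild-type cells to ask whether loss of 1 copy of ADAR1 goes with a difference. limma called 0 of the 34 genes, beside 0.00222% of all probe sets tested, and the lowest adjusted p was 0.891. Of the 34 genes, 21 were higher in heterozygous cells and 13 lower, with a median of 0.12 log2 units, while 43.5% of all genes were higher, with a median of -0.05. Among the 17 measured enzymes of sterol synthesis 12 were higher, with a median of 0.39. At an unadjusted p under 0.05, Hmgcs1 (0.63 ± 0.24), Nsdhl (0.56 ± 0.20) and Acsl3 (0.81 ± 0.25) were higher and Mvk (-1.06 ± 0.31) was lower, beside 3.0% and 2.90% of all genes. The groups did not overlap, with heterozygous higher, for 8 genes, beside 12.4% of all genes, and with heterozygous lower for 3, beside 17.5%. The 8 were Hmgcs1, Cyp51, Msmo1, Nsdhl, Sc5d, Fasn, Elovl6 and Acsl3, and the 3 were Mvk, Stard4 and Fads1. On their other probe sets above background on at least 4 arrays, the 3 did not separate this way. There Mvk differed by -0.06, Fads1 by 0.72 and Stard4 by -0.18 and 2.20. At 2.20, the heterozygous arrays (52.1 to 80.5) lay above the wild-type arrays (11.9 and 17.2). Such probe sets of Elovl6 (-0.45) and Acsl3 (-0.09) were also not higher, while those of Hmgcs1 and Cyp51 and another of Acsl3 were. The wild-type arrays stood far apart for several genes. Mvd read 119.9 and 12.2 on them, Scap 28.1 and 6.08, and Srebf2 34.3 and 119. Both wild-type arrays read as female by Xist and Eif2s3y, while heterozygous arrays 1 and 3 read as male. The part of sex in this comparison was not tested.

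**Figure D3:**
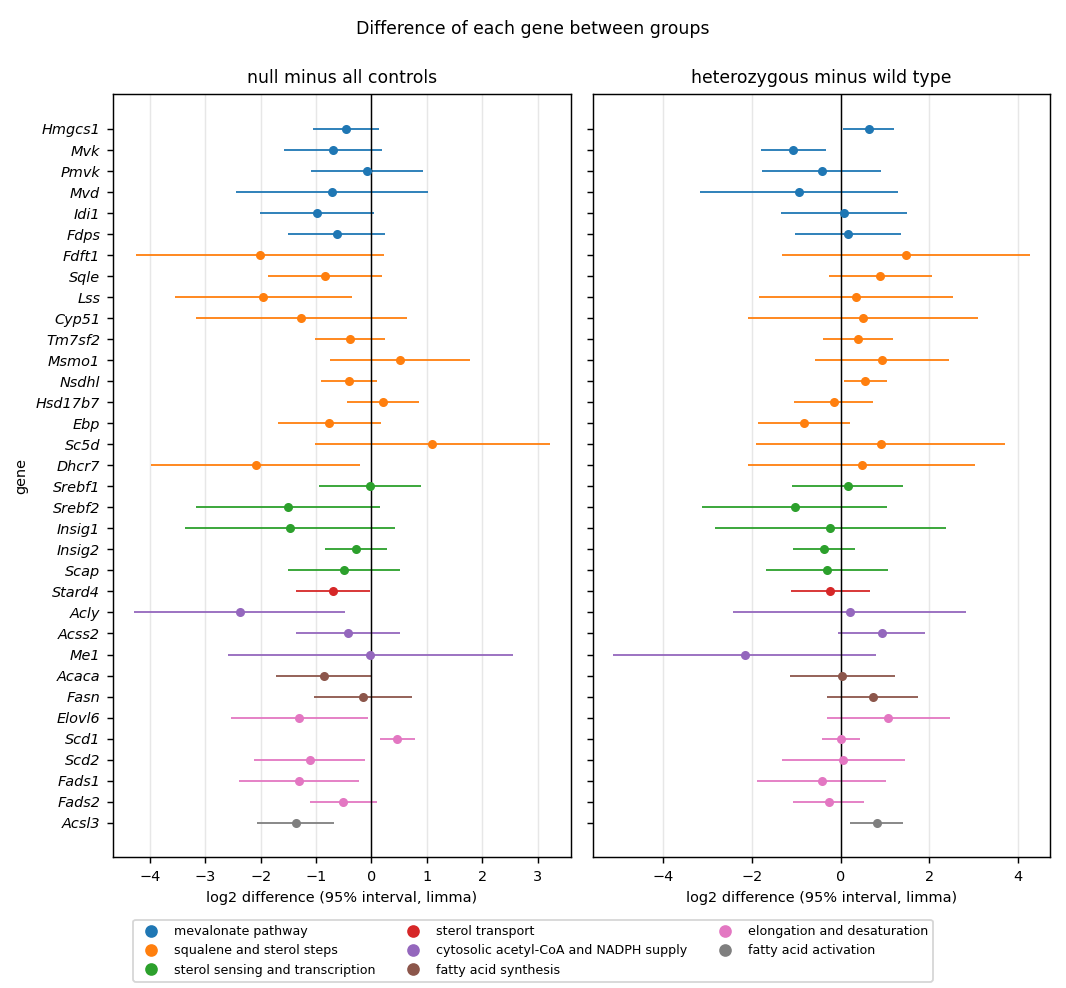
Difference of each of the 34 genes in log2 units (points) with its 95% interval from limma (lines), for null minus all controls (left, 3 and 5 arrays) and heterozygous minus wild type (right, 3 and 2 arrays), coloured by pathway step. On the left 30 of 34 points lie below 0 and on the right 21 of 34 lie above it, and no point in either panel passed the threshold after adjustment.

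The null arrays did not carry the lower values evenly. The median deviation of the 34 genes from the control mean was -0.96 log2 units on null array 1, -0.56 on null array 2 and -0.43 on null array 3, and it lay between -0.09 and 0.22 on the 5 control arrays. Null array 1 had the lowest value of the 8 arrays for 16 of the 34 genes, beside 16.9% of all genes. Null arrays 2 and 3 had it for 5 and 7, beside 13.5% and 14.8%. On null array 1, 16 genes were more than 1 log2 unit below the control mean, beside 14.3% of all genes, and on null arrays 2 and 3 it was 6 each, beside 7.24% and 11.6%. The 6 on null array 2 were led by Fdft1, Elovl6 and Insig1, and the 6 on null array 3 by Cyp51, Lss and Dhcr7. Null array 1 was also the null array with the fewest probe sets above background and with low Xist, whose part in the result was not tested.

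The size of the difference went with the intensity of the probe set. Of the 13 genes whose mean log2 intensity was 6 or more, all 13 were lower in null cells than in controls, with a median of -1.11, while 71.4% of the 3765 genes in that range were lower, with a median of -0.39. Of the 12 genes between 4 and 6, 10 were lower (median -0.74), beside 63.1% of 3190 genes (median -0.26). Of the 9 genes under 4, 7 were lower (median -0.27), beside 32.5% of 11238 genes (median 0.09). The pathway's median was below that of all genes in each range.

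**Figure D4:**
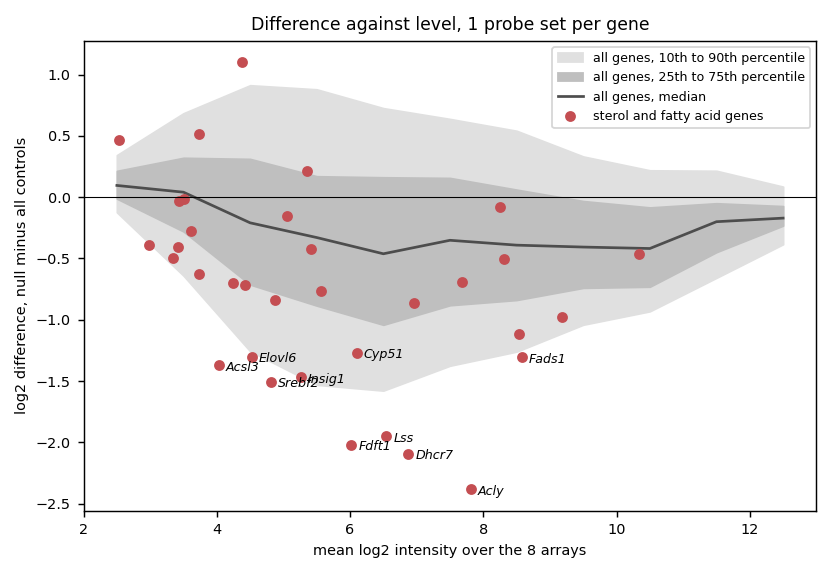
Difference between null and all control arrays (log2 units) against mean log2 intensity over the 8 arrays for the 34 genes (red points), with the median (line) and the central bands of all 18193 genes (grey). The 13 genes at 6 or more all lie below 0, and Acly, Dhcr7, Fdft1 and Lss lie at -1.95 to -2.38.

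Several genes had more than 1 probe set. Besides the brightest, 46 probe sets covered 25 of the genes, and 28 of these were above background on at least 4 arrays. Of those 28, 20 differed between null and control cells in the same direction as the brightest. The second Lss probe set differed by -2.55 ± 0.81, the next brightest of Acly by -1.67 ± 0.83 and -1.02 ± 0.35, the second of Scd2 by -2.13 ± 0.77 and that of Srebf2 by -0.77 ± 0.40. Fdft1 was a case of disagreement, since its second probe set, above background on all 8 arrays, differed by 0.75 ± 0.54. Probe sets of Cyp51 (0.58 ± 0.46), Mvk (0.12 ± 0.34), Fads2 (0.11 ± 0.38), Elovl6 (0.03 ± 0.46) and Acly (0.03 ± 0.20) also did not share the lower value of the brightest. A further Fads2 probe set did (-0.76 ± 0.40). For Hsd17b7 the next brightest probe sets differed by -0.42 ± 0.37 and 0.61 ± 0.22, and for Hmgcs1 by -0.33 ± 0.25, 0.48 ± 0.34 and -0.43 ± 0.38. With the mean of all probe sets per gene, the median over the 34 genes was -0.39 for null against controls and 29 were lower.

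Neighbouring parts of lipid metabolism were read in the same way. Of 12 other sterol genes (branch enzymes, uptake, regulators), 6 were lower in null cells than in controls and 0 passed the threshold, with a median of -0.08 and 0 at an unadjusted p under 0.05. The largest differences there were the scavenger receptor Scarb1 (-1.52 ± 0.82) and Ggps1, which branches from the mevalonate pathway to geranylgeranyl diphosphate (1.08 ± 0.58). Of 15 other genes of fatty acid and glycerolipid synthesis, 10 were lower, 1 passed, and the median was -0.22. The gene that passed was Gpam, a mitochondrial acyltransferase that starts glycerolipid synthesis. It read 153 and 153 in wild-type, 259, 269.9 and 233 in heterozygous and 82.8, 60.7 and 71.9 in null cells, and every null array was below every control array. Gpam fell by 1.54 ± 0.24 log2 units against all controls (adjusted p = 0.0469) and by 1.83 ± 0.15 against heterozygous cells (adjusted p = 0.00643). The first call held in 5 of 17 alternatives (adjusted p 0.0332 to 0.482) and the second in 12 of 18 (0.00523 to 0.440). Elovl5, an elongase of polyunsaturated fatty acids, differed by -2.30 ± 0.85 (adjusted p = 0.371).

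Of 9 liver X receptor and sterol efflux genes, 0 passed in null against controls, with 0 at an unadjusted p under 0.05 and a median of -0.35. The largest differences were in the partner receptors Rxrb (1.17 ± 1.08) and Rxra (-0.69 ± 0.43). Of 13 genes of fatty acid oxidation, the opposite process to synthesis, 11 were lower in null cells and the median was -1.17, with 0 past the threshold against all controls and 4 lower at an unadjusted p under 0.05. Acadm, a mitochondrial acyl-CoA dehydrogenase, read 43.3 and 36.2 in wild-type, 95.4, 82.1 and 68.3 in heterozygous and 25.4, 26.4 and 23.4 in null cells. It fell by 1.70 ± 0.16 against heterozygous cells (adjusted p = 0.0127, past the threshold in 13 of 18 alternatives, 0.00643 to 0.209). Etfdh (-1.88 ± 0.61) and Acaa2 (-1.86 ± 0.82), also of mitochondrial oxidation, had the largest differences against all controls.

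Most markers of hepatocytes and macrophages read lower in null cells too. Of 12 hepatocyte and hepatoblast markers, 11 were lower in null cells than in controls, with a median of -0.94, or -0.77 with the 2 genes at background in a whole group set to their bounds. Their summed linear level was 275 to 652 in wild-type, 656 to 1161 in heterozygous and 92.1 to 122 in null cells, and 4 to 5 of the 12 were above background on the null arrays against 7 to 11 on the control arrays. The fetoprotein gene Afp fell by 5.11 ± 0.79 log2 units against controls (adjusted p = 0.0403, past the threshold in 7 of 17 alternatives) and was above background on 1 null array. The apolipoprotein gene Apoa2 fell by 3.32 ± 0.37 against heterozygous cells (adjusted p = 0.0223, 13 of 18 alternatives). Alb, which encodes albumin, read 67.0 and 145 in wild-type, 50.3, 43.8 and 68.4 in heterozygous and 16.8, 13.7 and 6.73 in null cells. Of 10 macrophage markers, 8 were lower (median -1.14, or -0.77 with 4 genes set to such bounds), and their summed level was 295 to 888 in wild-type, 381 to 503 in heterozygous and 80.0 to 102 in null cells, with 2 to 4 above background on the null arrays and 7 to 8 on the control arrays. The lysozyme gene Lyz2 fell by 2.54 ± 0.34 (adjusted p = 0.0207, past the threshold in 8 of 17 alternatives). The complement gene C1qb differed by -3.69 ± 0.65 (adjusted p = 0.0665), and the receptor gene Csf1r was at background on every null array. Of 8 erythroid markers, 5 were lower and 3 higher in null cells than in controls, with a median of -0.12, or 0.19 against wild type. They summed to 992 to 1160 in wild-type, 1471 to 1769 in heterozygous and 889 to 1015 in null cells. Of them the blood group gene Ermap differed by -2.70 ± 0.46 (adjusted p = 0.0609), and the erythroid transcription factor Gata1 rose against wild type by 1.24 ± 0.15 (adjusted p = 0.0355, 5 of 18 alternatives). The 14 stem and progenitor markers had a median of 0.04 and summed to 2366 to 2949 in controls and 1796 to 2882 in null cells, and the largest differences among them were Hoxa9 (0.76 ± 0.60) and Lmo2 (-0.69 ± 0.16).

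Of 19 proliferation genes, 17 were lower in null cells than in controls, with a median of -0.75 and 0 past the threshold (12 lower at an unadjusted p under 0.05). The mitotic kinases Aurka (-2.33 ± 0.61) and Aurkb (-2.08 ± 0.49) had the largest differences. Of 8 housekeeping genes, 7 were lower, with a median of -0.48, and Gusb passed (-2.15 ± 0.34, adjusted p = 0.0469, 6 of 17 alternatives). Hprt differed by -1.48 ± 0.31. These lists shifted the same way as the sterol and fatty acid genes, and the part of other cells, of cell division or of array quality in the result was not tested. The Gapdh 3′ to 5′ ratio compares signal from the ends of the transcript and was 7.45 to 8.73 in null cells. It was 4.32 to 5.78 on the control arrays other than heterozygous array 3, where it was 9.0. It was thus higher on every null array than on 4 of the 5 control arrays. The Actb ratio was 0.552 to 0.745 in null cells and 0.645 to 0.703 in controls, so there the groups overlapped. The part of either ratio in the result was not tested.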

How the data were processed

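The authors deposited 1 table of linear intensity per probe set for 8 arrays, made by RMA per the submitters' processing notes; the software and its version: not given in the sources used here. Every column was used (0 left out). From the deposited intensity, log2 values were taken with no pseudocount and no further scaling. The differences in upper quartile between the deposited arrays therefore remained in the main values. The 64 Affymetrix control probe sets were left out, which left 45037. Probe sets were named through GEO's platform annotation (34945 with 1 gene, 932 with several, 9160 with none), and only those with 1 gene were named; 34741 of their symbols matched RefSeq.

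limma 3.58.1 in R 4.3.3 was fitted to all 3 groups for the comparisons between them, and to null against the 5 control arrays for the pooled comparison. P-values are two-sided and adjusted over all probe sets by Benjamini-Hochberg. Errors are limma's SE, and the number of arrays limits the precision. The fit was tested on simulated data. A gene was taken as above background on an array where it exceeded the highest of 27 Bacillus control probe sets. Where a gene was at background on every array of a group, the ratio is a bound, taken against the background level of each array. Replicate numbers follow the order of deposit and pair nothing; each array is labelled as 1 mouse.

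The genes and lists were chosen with earlier results of these data known. Values on each array are given for genes past the threshold, those whose null arrays did not overlap the controls, the 4 lowest and 4 highest differences and a list of central enzymes and regulators. Idi1, Mvk, Cyp51 and Acaca were added after their values were seen. Alternatives were other normalizations, a pseudocount of 32, filters on low values, other probe set rules, variance models, fewer groups and leaving out each array.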

Additional observations from a re-analysis of the deposited data

Results flagged for a closer look

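Of 16 genes whose 5 control arrays were examined with Dixon's test, 2 had a control array far from the other 4. Fdft1, the squalene synthase, read 4.46 log2 units on wild-type array 2, the lowest control, against 7.19 to 7.56 on the others. Sc5d, the sterol desaturase, read 5.43 on heterozygous array 1, the highest control, against 3.33 to 3.83 on the others. Chance flags about 1 in 20 groups.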

How the results depend on the processing

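No median, and no difference of Acsl3, changed sign under any alternative run. For null against all controls the median of -0.70 became -0.42 with cyclic loess normalization, -0.43 with a pseudocount of 32 and -0.39 with the mean of the probe sets per gene, and it ran from -0.85 to -0.49 when 1 array was left out. The count past the threshold was 0 and ran from 0 to 1 when 1 array was left out (Dhcr7 without null array 2, Insig1 without null array 3). For null against wild type the median of -0.76 became -0.34 with the pseudocount of 32 and -0.27 with the mean of the probe sets, and ran from -0.88 to -0.49 with 1 array left out, while the count stayed 0. For null against heterozygous the median of -0.66 became -0.42 with cyclic loess and -0.41 with the pseudocount of 32, and ran from -0.70 to -0.46 with 1 array left out. The 1 call there (Acsl3) became 0 with quantile normalization (limma, adjusted p = 0.0852), cyclic loess (0.121), the filter at the median level (0.0501), a trend in the variance (0.121) and the arrays of the 2 groups alone (0.0580), and the count ran from 0 to 1 with 1 array left out. For heterozygous against wild type the median ran from 0.03 to 0.13 with 1 array left out and the count stayed 0. Where a wild-type array was left out, the lone one was assumed to vary like the other groups. Values were counted over 16 of the genes given on each array, without Idi1, Mvk, Cyp51 and Acaca. Of these values, 1066 kept their direction and side of the threshold, 12 lost the threshold, 2 gained it and 48 changed sign. None of the 48 was past the threshold. For null against all controls the sign turned for Srebf1 with quantile normalization (0.026), cyclic loess (0.065), the pseudocount of 32 (0.012) and array weights (0.069), and for Fasn with quantile normalization (0.11) and cyclic loess (0.19). For null against wild type it turned for Hmgcs1 with quantile normalization (0.083), cyclic loess (0.14) and the mean of the probe sets (0.17), and for Hsd17b7 with the mean (-0.023). For null against heterozygous it turned for Srebf1 with quantile normalization (0.00058), cyclic loess (0.024) and the pseudocount (0.0016). For heterozygous against wild type it turned for Scd2 with quantile normalization (-0.0043), cyclic loess (-0.077) and the mean (-0.061), and with the mean for Scd1 (-0.14) and Acly (-0.22). With 1 array left out the sign also turned for null against all controls in Srebf1 (-0.30 to 0.46), Hsd17b7 (-0.18 to 0.41), Fasn (-0.42 to 0.24), Sc5d (-0.094 to 1.99). It turned for null against wild type in Fdft1 (-2.56 to 0.29), Srebf1 (-0.45 to 0.58), Hmgcs1 (-0.35 to 0.18), Sqle (-1.13 to 0.52), Fasn (-0.11 to 0.68), Hsd17b7 (-0.27 to 0.31). It turned for null against heterozygous in Srebf1 (-0.37 to 0.40), Msmo1 (-0.30 to 0.81), Hsd17b7 (-0.11 to 0.47), Sc5d (-0.46 to 1.63). It turned for heterozygous against wild type in Acly (-0.013 to 0.41), Scd1 (-0.084 to 0.10), Srebf1 (-0.36 to 0.67), Lss (-1.07 to 1.74), Insig1 (-0.49 to 0.026), Scd2 (-0.0096 to 0.21). The causes of these shifts were not tested. No paired analysis was possible because the labels give no replicate numbers, and those used here follow the order of deposit. Intensities near background limit the lowest genes, of which Scd1 was above background on 1 array.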
